A study of Eublepharis macularius with 4 samples.

Results

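Collagens are the main structural proteins of connective tissue. Each molecule is a triple helix of 3 chains, which may be copies of 1 gene product or the products of different genes, so that partner chains are needed together. Fibrillar collagens (types I, III and V among them) build the load-bearing fibrils of gum, dental papilla, dentine and bone, type IV forms the sheet-like network of basement membranes under epithelium and around vessels, and type VII anchors the epithelial basement membrane to the fibrils beneath it. Types XII, XIV and XVI (FACIT collagens) coat fibrils, type VI makes beaded filaments close to cells, and types XV and XVIII (multiplexins) sit at basement membranes.

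The collagen genes were described across the cell classes of the jaw of adult leopard geckos (Eublepharis macularius), a lizard that replaces its teeth throughout life. All gene names of the form COL, a number, A and a number were taken, except COL17A1, a hemidesmosome component. This gave 39 of the 24025 features counted. All 39 had an entry in the RefSeq gene table of assembly MPM_Emac_v1.0, on 15 chromosomes. No collagen count entered the definition of a class. A cell was epithelial with 10 or more UMIs of LOC129339097, mesenchymal with 3 or more of DCN plus LUM (small proteoglycans of connective tissue), endothelial with 3 or more of PLVAP, VWF and EMCN together, and otherwise other. A UMI stands for 1 captured transcript molecule.

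Soft jaw tissue with unerupted teeth and dental lamina came from 2 animals, each with 2 libraries of live cells sorted by propidium iodide exclusion. LG252 was digested at 37 °C for 4 to 5 h with collagenase D (1.5 U/ml) and dispase II (2.4 U/ml). LG255 was digested at 4 °C for 6 h with Bacillus licheniformis protease (10 mg/ml). Beyond adult age, neither age, sex nor genotype was given, and animal and digestion cannot be told apart. The titles label the 2 libraries of an animal as biological replicates (biolrep), while the protocol names 1 animal per digestion. What separates these replicates is not stated. The p-values therefore measure the spread between these libraries, which may be partly technical.

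Of 8612 barcodes, 8531 with 200 or more genes were kept, and the libraries held 4535439 to 20754804 UMIs. In the order LG252 replicate 1, LG252 replicate 2, LG255 replicate 1 and LG255 replicate 2, which is used for every set of 4 values below, the kept barcodes comprised 556, 629, 460 and 877 epithelial cells, 377, 720, 14 and 75 mesenchymal cells and 26, 63, 20 and 12 endothelial cells. The other class held 4611 cells, and 91 cells (1.07%) that met more than 1 rule were set aside. The median depth of an epithelial cell was 6984.5 to 11957 UMIs per library, against 1999 to 5536 in mesenchymal and 1792.5 to 4257 in endothelial cells. Independent markers matched the class names. The summed level of 6 epithelial markers was 2176 to 2619 CPM (UMIs per 1000000 UMIs of the class) in epithelial cells against 37.3 to 182 in mesenchymal cells. That of 10 mesenchymal markers was 1193 to 3971 CPM in mesenchymal cells against 5.54 to 20.6 in epithelial cells, with TWIST2 at 0 in the mesenchymal cells of all 4 libraries. That of 10 endothelial markers was 2167 to 3613 CPM in endothelial cells against 14.4 to 33.1 in mesenchymal cells.

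Most collagen UMIs lay in mesenchymal cells, though not those of every gene. Epithelial cells held 674 of the 827 COL7A1 and 802 of the 1207 COL4A5 UMIs. Such counts grow with the size of a class, and the 2522 epithelial cells were more and deeper than the 1186 mesenchymal cells. Relative to all UMIs of the class, neither gene was called between these classes, as given below. The 39 genes took 2.33%, 1.94%, 1.94% and 2.66% of all mesenchymal UMIs, a mean of 2.22% ± 0.345 (SD, n = 4 libraries). In epithelial cells they took 0.0133%, 0.0327%, 0.0438% and 0.0293%, a mean of 0.0298% ± 0.0126. The lowest mesenchymal library lay far above the highest epithelial library. The endothelial share was 0.0338%, 0.571%, 0.0459% and 0.0461%, so that LG252 replicate 2 stood apart from the other 3, and the share in other cells was 0.0107%, 0.161%, 0.0760% and 0.202%. Within the mesenchymal class the median cell gave 1.52%, 1.16%, 1.57% and 2.04% of its UMIs to collagens. Over all kept cells COL1A1 had 41664 UMIs, COL1A2 27129 and COL3A1 18357, while 13 of the 39 genes, from COL4A3 with 66 UMIs to COL9A3 with 1, were too sparse to be tested between classes. The cartilage collagen gene COL2A1 was 1 of these, with 59 UMIs, of which 51 lay in the other cells of LG252 replicate 1.

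**Figure D1:**
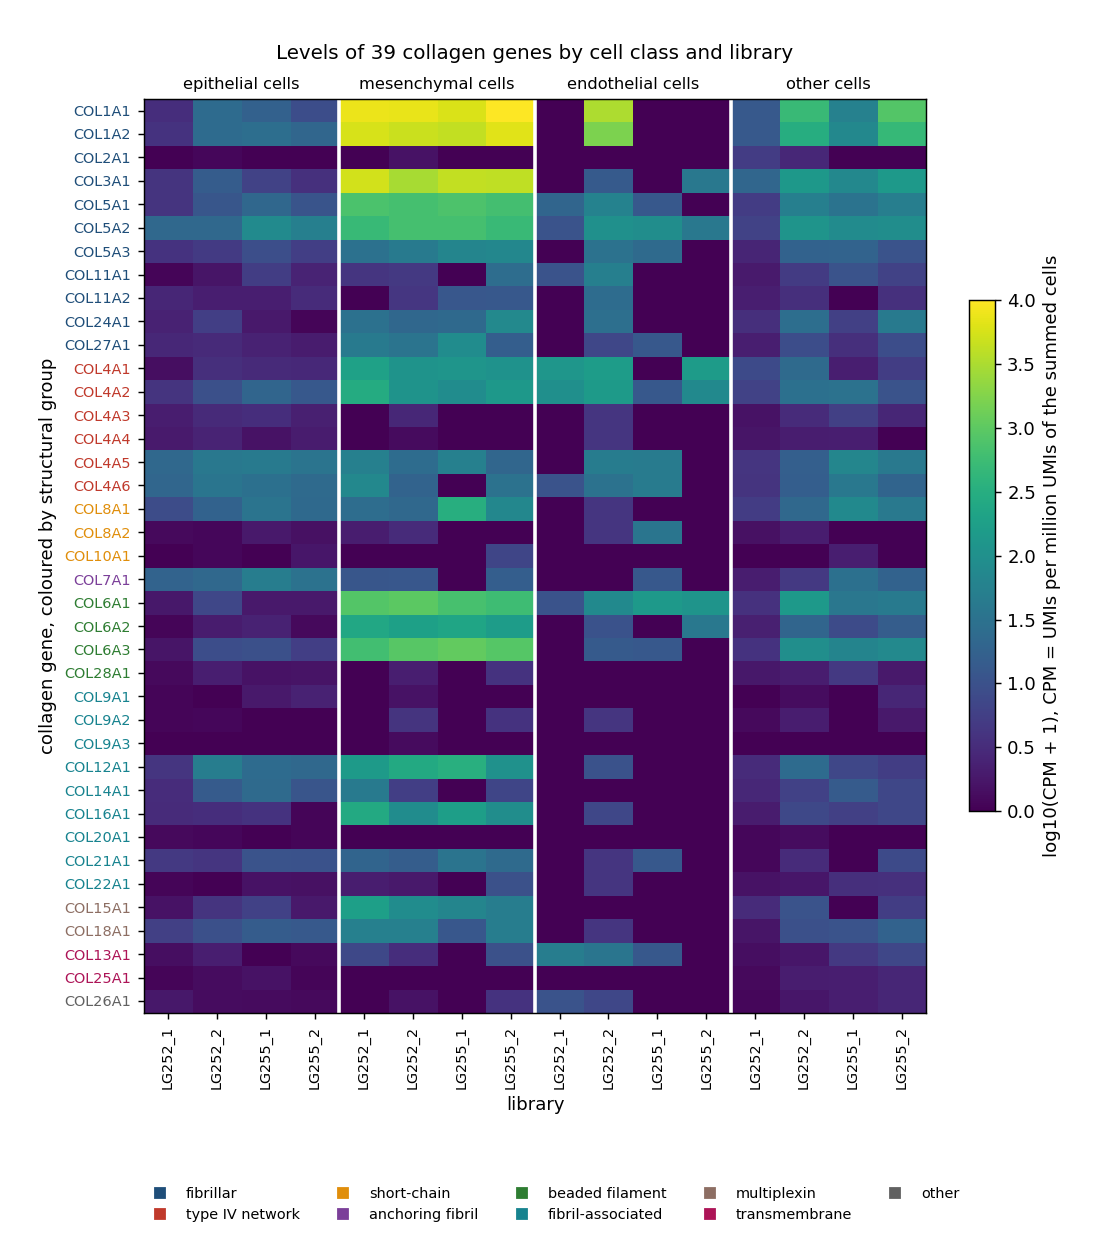
Heat map of the level of each of the 39 collagen genes (rows, by collagen group) in every library of the 4 cell classes (columns); colour is log10 of the CPM plus 1. COL1A1, COL1A2 and COL3A1 stand between 2976 and 12131 CPM in all mesenchymal sums, while the epithelial sums have no collagen above 81.0 CPM.

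The fibrillar genes led the mesenchymal class. COL1A1, the α1 chain of type I collagen (chromosome 12, 45650646 to 45701330), was at 7729, 7397, 6024 and 12131 CPM, with a mean of 8320 ± 2645 (SD, n = 4). Its partner COL1A2 (chromosome 11, 61178843 to 61249149) was at 5732, 4718, 4292 and 6547 CPM. COL3A1, which makes the type III fibrils of soft connective tissue (chromosome 2, 225386079 to 225490059), was at 5423, 2976, 4270 and 4180 CPM. A UMI counts a molecule at its 3′ end and is not scaled by gene length, so the order among genes also rests on how well each 3′ end is annotated. Most mesenchymal cells held these transcripts: 92.4% had a UMI of COL1A1, 94.8% of COL1A2 and 95.6% of COL3A1, and after thinning each cell to 1000 UMIs the shares were 84.1%, 87.4% and 84.1%.

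The next genes of the mesenchymal class were those of type VI and type V collagen. COL6A3, the long chain of the type VI beaded filament, was at 609, 913, 1092 and 897 CPM. COL6A1 was at 844, 988, 695 and 571 CPM. COL5A1, whose chain regulates fibril diameter, was at 729, 666, 750 and 643 CPM, with a mean of 697 ± 50.9 and so the smallest SD of the 6 leading genes. The 4 libraries lay close together for this gene although LG255 replicate 1 contributed only 14 mesenchymal cells.

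Compared with epithelial cells, 18 of the 26 tested collagen genes were higher in mesenchymal cells and 0 were lower (edgeR quasi-likelihood test with the library as a block, adjusted p under 0.05). Of all 10984 genes tested, 27.8% were called, 13% as higher and 14.9% as lower in mesenchymal cells. At an unadjusted p under 0.05, 21 collagen genes were higher and 1 lower, and DESeq2 called 20 higher and 0 lower. Among all 10984 genes these counts, in either direction, were 4045 and 3483. The median log2 fold change of the 26 genes was 3.55, against -0.08 over all genes tested. In 18 of the 26 the mesenchymal and epithelial libraries did not overlap. The same share over all genes was not computed, so this count has no background to be read against.

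Of the fibrillar genes, 8 of 10 tested were higher in mesenchymal cells, with a median log2 fold change of 4.00. COL1A1 was at 2.36, 23.9, 16.3 and 7.75 CPM in epithelial cells, and its log2 fold change was 9.57 ± 1.52 (SE, edgeR adjusted p = 0.000119). COL3A1 was at 3.05, 13.4, 5.24 and 2.63 CPM in epithelial cells, with a log2 fold change of 9.24 ± 0.70 (edgeR adjusted p = 1.92e-07). COL1A2 was at 2.91, 23.9, 27.4 and 19.8 CPM there, and differed by 8.32 ± 1.32 on the log2 scale. For each of these genes every mesenchymal library was above every epithelial library by orders of magnitude. COL11A1 and COL11A2, chains of the type XI collagen best known from cartilage, were the fibrillar genes without a call, at log2 fold changes of 2.12 (edgeR adjusted p = 0.0805) and 0.56 (edgeR adjusted p = 0.691). COL11A1 was called once endothelial cells, which share this fit, needed an endothelial marker (2.27, edgeR adjusted p = 0.0212). That alternative, described below, was chosen after seeing the data.

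All 3 tested type VI genes were higher in mesenchymal cells. COL6A1 was at 0.831, 6.02, 0.874 and 0.875 CPM in epithelial cells, a log2 fold change of 8.52 ± 0.85 (edgeR adjusted p = 1.29e-06). COL6A2 was at 251, 185, 221 and 164 CPM in mesenchymal and 0.139, 1.00, 1.46 and 0.25 CPM in epithelial cells, a log2 fold change of 8.02 ± 0.75. COL6A3 was at 0.693, 7.86, 8.45 and 4.5 CPM in epithelial cells, a log2 fold change of 7.35 ± 0.67. The type VI genes thus gave near-empty epithelial sums beside mesenchymal levels of 164 CPM or more.

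The type IV genes split by chain. COL4A1 and COL4A2 code for the pair of chains found in nearly all basement membranes, and COL4A5 and COL4A6 for chains of a more restricted network. COL4A1 was at 192, 112, 121 and 107 CPM in mesenchymal and 0.416, 2.51, 2.04 and 1.88 CPM in epithelial cells, a log2 fold change of 5.84 ± 0.67 (edgeR adjusted p = 4.97e-06). COL4A2 was at 291, 114, 88.3 and 135 CPM against 3.05, 8.36, 18.9 and 11.5 CPM, a log2 fold change of 3.65 ± 0.70. Both were therefore higher in mesenchymal cells, with no overlap between classes. In LG255 replicate 1, 1 mesenchymal cell held 7 COL4A1 and 5 COL4A2 UMIs, and all others together 4 and 3. In LG255 replicate 2, 1 cell held 27 and 21, and all others 10 and 26. Markers of mural cells summed to 607, 113, 154 and 150 CPM in the mesenchymal class, and their part was not tested. COL4A5 was at 53.3, 24.9, 55.2 and 20.2 CPM in mesenchymal and 21.3, 38.3, 43.4 and 33.8 CPM in epithelial cells. Its log2 fold change of -0.13 ± 0.62 did not pass the test (edgeR adjusted p = 0.926), and COL4A6 with 0.10 ± 0.65 did not either (edgeR adjusted p = 0.952). COL4A3 and COL4A4 had 66 and 41 UMIs in all and were not tested.

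Of the fibril-associated genes, 2 of 4 tested were higher in mesenchymal cells. COL16A1 was at 272, 88.7, 177 and 89.4 CPM, a log2 fold change of 6.03 ± 0.67 over epithelial cells (edgeR adjusted p = 4.01e-06), and COL12A1 was at 151, 266, 331 and 104 CPM, with a log2 fold change of 2.99 ± 0.48. COL14A1, at 42.6, 4.45, 0 and 5.77 CPM in the mesenchymal libraries, was not called. Both multiplexin genes were higher. COL15A1 was at 179, 87.5, 66.2 and 49.0 CPM in mesenchymal cells, and COL18A1, the source of the fragment endostatin, was called with a log2 fold change of 2.07 ± 0.57. COL8A1, a short-chain network collagen, was higher by 1.21 ± 0.42 on the log2 scale (edgeR adjusted p = 0.0379), with 320 CPM in LG255 replicate 1 against 21.4 to 69.2 CPM in the other 3 libraries. In LG255 replicate 1, 28 of its 29 mesenchymal UMIs were in 1 cell, and the call was lost in 8 of 15 alternatives, among them the fit without that library (0.76, edgeR adjusted p = 0.298) and the one without Scrublet calls (0.50, edgeR adjusted p = 0.493).

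COL7A1 (chromosome 4, 120000173 to 120200069), the anchoring fibril gene, was the tested member furthest toward epithelial cells. It was at 17.7, 21.1, 48.7 and 31.6 CPM in epithelial and 10.7, 11, 0 and 14.4 CPM in mesenchymal cells. The epithelial value was higher in 4 of 4 libraries, but the log2 fold change of -1.47 ± 0.55 did not pass the threshold (edgeR adjusted p = 0.0580). Leaving out 1 library at a time, 17 to 20 collagen genes were called between mesenchymal and epithelial cells. The same fits called 1714 to 3382 of all genes tested. The count of 20, without LG252 replicate 1, comprised 18 higher and 2 lower genes.

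**Figure D2:**
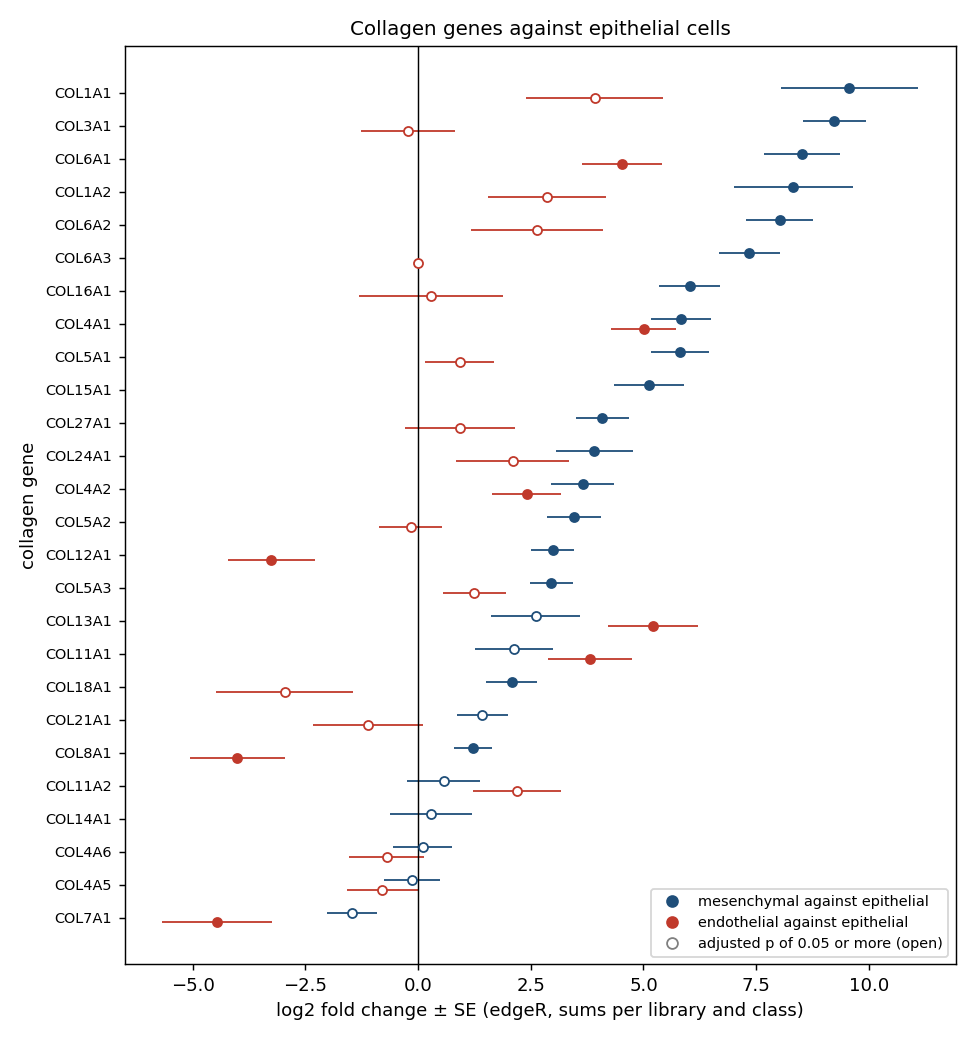
Log2 fold change (± SE, edgeR with the library as a block) of 26 collagen genes in mesenchymal and in endothelial against epithelial cells; filled points passed an adjusted p of 0.05. Mesenchymal points run from -1.47 for COL7A1 to 9.57 for COL1A1. No endothelial point is drawn for COL14A1 and COL15A1, which had 0 endothelial UMIs, and no error bar for COL6A3 in endothelial cells, whose fold change was near 0.

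The genes that make collagen protein were compared in the same fit. Of 17 tested genes for folding and modification of the chains, 10 were higher in mesenchymal cells and 1 was lower. SERPINH1, the collagen chaperone of the endoplasmic reticulum, was at 406 ± 105 against 14.7 ± 5.15 CPM (n = 4), a log2 fold change of 4.27, followed by the prolyl and lysyl hydroxylase genes P3H1 (3.78) and PLOD2 (3.63). P3H2, another prolyl 3-hydroxylase gene, was lower in mesenchymal cells, with 4.18 against 24.8 CPM and a log2 fold change of -3.68 (edgeR adjusted p = 0.000195). Of 7 secretion genes, 3 were higher, namely SEC24D (3.60), CREB3L1 (1.95) and SEC23A (0.97).

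Outside the cell, 9 of 10 genes for processing and cross-linking were higher in mesenchymal cells, led by the cross-linking enzyme LOXL1 (log2 fold change 7.67), the procollagen C-proteinase enhancer PCOLCE2 (6.90) and the N-proteinase ADAMTS2 (6.85). The breakdown list holds proteases and also TIMP genes, which code for inhibitors. All 10 of its tested genes were higher. They were led by the gelatinase MMP2 (8.18, with 531 against 1.74 CPM), the collagenolytic protease CTSK (7.75) and the inhibitor TIMP4 (7.61). The 8 receptor and uptake genes divided between the classes. The collagen receptor kinase DDR2 (3.47), the integrin gene ITGA10 (3.23) and the uptake receptor MRC2 (2.37) were higher in mesenchymal cells. DDR1 (log2 fold change -5.09, with 2.34 against 82.0 CPM) and ITGA2 (-3.98, with 4.98 against 42.8 CPM) were lower there. These counts are to be read beside the 27.8% of all genes called in this comparison.

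In epithelial cells the 6 members with the highest mean level were COL5A2, COL4A5, COL7A1, COL4A6, COL12A1 and COL8A1. COL5A2, the α2 chain of type V collagen, was at 21.2, 21.2, 81.0 and 52.1 CPM, with a mean of 43.9 ± 28.7 (SD, n = 4). COL4A5 had a mean of 34.2 ± 9.44 CPM and COL4A6 of 26.6 ± 6.23 CPM, so the chains of this pair, whose genes lie 4442 bases apart on chromosome 13, were the steadiest between libraries. COL7A1 had a mean of 29.8 ± 13.9 CPM. COL12A1 was at 3.19, 48.3, 23.9 and 21.6 CPM and COL8A1 at 7.62, 16.9, 34.1 and 22.6 CPM. Neighbours in this order did not differ beyond their spread.

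Free RNA in the droplets was gauged in the 2456 other cells with a UMI of PTPRC, a leukocyte gene, of which 2142 came from LG252 replicate 1 and 20 from each LG255 library. Their own collagen share was 0.00439%, 0.0221%, 0.00553% and 0.00465%. COL5A2 was detected in 26.5% of epithelial cells and 0.49% of these PTPRC cells, COL4A5 in 21.6% and 0.37%, and COL7A1 in 18.8% and 0.24%. Epithelial cells were deeper, with 6984.5 to 11957 UMIs at the median against 2656 to 5283. After thinning to 1000 UMIs a cell the shares were 5.11% and 0.21% for COL5A2, 3.03% and 0.17% for COL4A5 and 2.99% and 0.13% for COL7A1. These shares pool libraries of uneven make-up. Within libraries COL5A2 was at 0.613, 9.16, 0 and 0 CPM in the PTPRC cells, which in LG252 replicate 2 compares with 21.2 CPM in epithelial cells. COL1A1 was different, since its epithelial level of 2.36 and 23.9 CPM in LG252 was below the 3.56 and 33.6 CPM of the PTPRC cells. CPM depends on the depth of a cell, and epithelial cells were deeper, so this does not measure the free RNA in them. How much of their COL1A1 was free RNA was not tested.

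Against all other cells, 2 collagen genes were higher and 7 lower in epithelial cells, of 26 tested. Of all genes 18.4% were called, 7.47% as higher and 10.9% as lower. The summed level of the 6 epithelial markers in the other class was 67.0 and 259 CPM in LG252 and 990 and 738 CPM in LG255, and its part in these results was not tested. COL7A1 was at 1.08, 3.58, 28.8 and 17.3 CPM in other cells, a log2 fold change of 1.94 ± 0.53 in epithelial cells (edgeR adjusted p = 0.0147, higher in 4 of 4 libraries). COL12A1 was at 2.07, 24.3, 6 and 4.33 CPM there, a log2 fold change of 1.57 ± 0.49 (edgeR adjusted p = 0.0307, higher in 4 of 4 libraries). DESeq2 called 0 higher and 6 lower, and 2499 of all 10984 genes in either direction. The COL7A1 call was lost without LG252 replicate 2 (edgeR adjusted p = 0.170). The COL12A1 call was lost without LG252 replicate 2, LG255 replicate 1 or LG255 replicate 2 (edgeR adjusted p = 0.0913, 0.123 and 0.126), and in 8 of 15 alternatives in all, with an adjusted p of up to 0.298.

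The genes lower in epithelial than in other cells were COL1A1, COL3A1, the 3 type VI genes, COL24A1 and COL4A1, while COL1A2 (log2 fold change -2.97, edgeR adjusted p = 0.0683) was not called. With the endothelial marker requirement described below, COL1A2 was called as lower (-3.09, edgeR adjusted p = 0.00614). COL6A1 was at 2.65, 141, 37.2 and 43.3 CPM in other cells (log2 fold change -4.41 ± 0.74), COL3A1 at 19.6, 136, 73.2 and 147 CPM (-3.86 ± 0.57), and COL6A2 and COL6A3 gave -3.70 and -3.23. COL1A1 gave -4.08 ± 1.31 and COL24A1, a minor fibrillar gene known from developing bone, gave -3.03 ± 0.80. In other cells COL1A1 was at 12.2, 508, 56.4 and 863 CPM, so the replicate 2 libraries of both animals held most of it. The COL1A1 call was lost without LG252 replicate 2 (edgeR adjusted p = 0.0547) and without LG255 replicate 2 (log2 fold change -2.49, edgeR adjusted p = 0.203). The COL24A1 call was lost without the same libraries (edgeR adjusted p = 0.0683, and 0.0919 with a log2 fold change of -1.87). Without LG252 replicate 1, 14 collagen genes were called here, against 4 without LG252 replicate 2 and 6 without LG255 replicate 2. Those fits called 2087 of 11202, 914 of 10666 and 1878 of 12794 genes in all.

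Within the epithelium, collagen genes followed COL17A1 and LAMB3, which code for hemidesmosome and laminin proteins of cells that sit on the basement membrane. Cells with 3 or more UMIs of the pair numbered 307, 354, 126 and 163, and cells with 0 numbered 163, 181, 205 and 489. The rich cells were higher for 10 of 16 tested collagen genes and lower for 0, where 17.2% of all genes were called, 8.74% as higher and 8.47% as lower. Before adjustment (p under 0.05) 14 were higher and 0 lower, and DESeq2 called 8 higher and 0 lower. Among all 10207 genes these counts, in either direction, were 3063 and 1058. COL7A1 was at 21.5, 24.3, 73.2 and 64.7 CPM in rich and 6.27, 9.08, 23.5 and 11.3 CPM in free cells, a log2 fold change of 1.92 ± 0.21 (edgeR adjusted p = 2.91e-05). COL18A1 was at 6.36, 9.63, 16.6 and 26.0 against 1.71, 6.81, 4.40 and 3.25 CPM, a log2 fold change of 2.00 ± 0.37. COL5A1 was at 4.17, 13.7, 32.2 and 22.8 against 1.14, 1.51, 11 and 5.21 CPM, a log2 fold change of 1.99 ± 0.27. In each of these genes the rich cells were above the free cells of their own library in 4 of 4 libraries.

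COL8A1 was at 9.21, 17.2, 40.1 and 42.5 CPM in rich and 3.99, 10.6, 19.8 and 8.90 CPM in free cells, a log2 fold change of 1.41 ± 0.25. The type IV pair moved together, with log2 fold changes of 0.95 ± 0.18 for COL4A5 (24.1, 43.6, 47.9 and 51.4 against 13.1, 21.2, 35.9 and 19.5 CPM) and 1.11 ± 0.21 for COL4A6. COL14A1 (1.34) and COL1A1 (1.28) were also higher in 4 of 4 libraries, as was COL5A2 (0.59). Of the 39 COL1A1 UMIs of the rich cells of LG255 replicate 1, 22 were in 1 cell. In LG252 the epithelial CPM of this gene was not above that of the shallower PTPRC cells. COL12A1 (1.72) was higher in 3 of 4, with LG252 replicate 1 the other way at 2.63 against 5.70 CPM.

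The rich cells were deeper in 3 of 4 libraries, with a median of 13524, 9547, 9439.5 and 9330 UMIs against 10749, 7225, 5649 and 9534, and a cell with more UMIs reaches a minimum of 3 more easily. The part of depth was not tested beyond thinning to 1000 UMIs, after which 2 of the collagen genes had counts enough to be tested and 1 was called. The mesenchymal gene DCN was at 10.5, 13.9, 2.61 and 6.34 CPM in rich against 2.85, 9.84, 10.3 and 1.95 CPM in free cells. Without LG255 replicate 2 the count was 6, COL18A1 was not called (1.27, edgeR adjusted p = 0.0577) and neither was COL1A1 (edgeR adjusted p = 0.0753). That fit called 1158 of 9642 genes in all. COL1A1 was also lost without LG255 replicate 1 (edgeR adjusted p = 0.115).

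**Figure D3:**
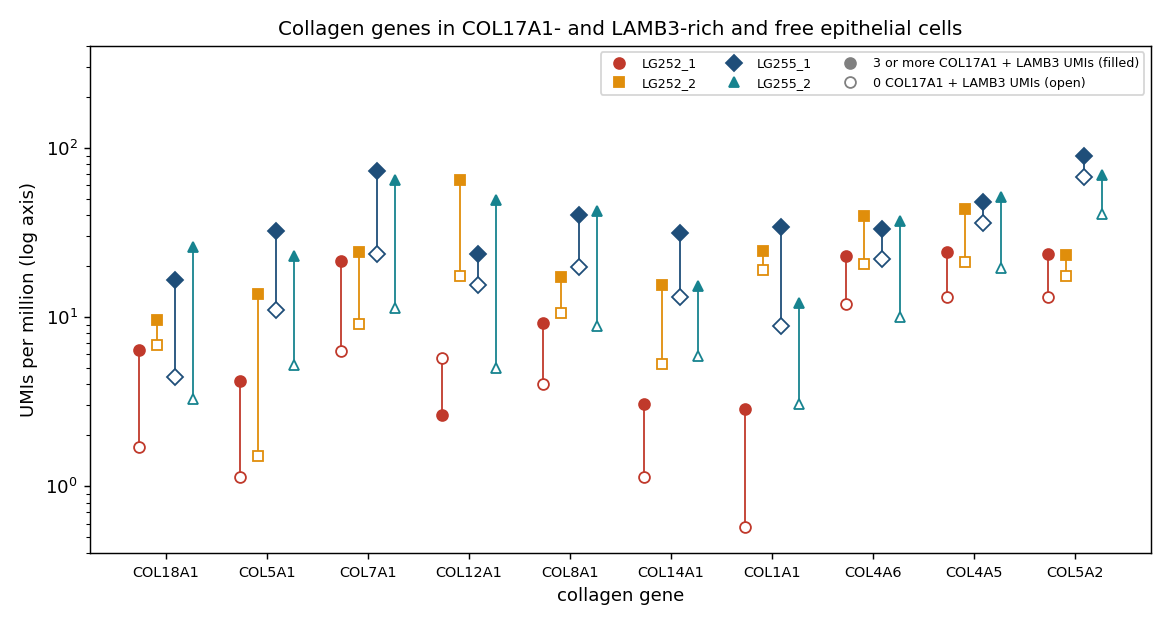
Level (UMIs per 1000000 UMIs, log axis) of collagen genes in epithelial cells with 3 or more UMIs of COL17A1 plus LAMB3 and in those with 0, by library. COL7A1 reaches 21.5 to 73.2 CPM in the rich cells and 6.27 to 23.5 CPM in the free cells.

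Among genes of the collagen pathway, 6 of 15 tested for folding were higher in the rich cells (P4HA1, P4HA2, CRTAP, PPIB, SERPINH1 and FKBP10) and FKBP14 was lower. Of 6 receptor genes 4 were higher, namely the integrin genes ITGA1, ITGA2 and ITGB1 and the uptake receptor MRC2. Processing gave 2 of 4 higher (PCOLCE and SPARC), the breakdown list 2 of 4 (MMP14 and the inhibitor TIMP3), and of 6 secretion genes CREB3L1 was lower. Of all genes 17.2% were called in this comparison, 8.74% as higher and 8.47% as lower, and the limit of depth given above holds here too.

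Epithelial cells with a UMI of NTRK3, a neurotrophin receptor gene (23, 28, 26 and 19 cells), held COL8A1 at 56.7, 46.8, 217 and 76.6 CPM, against 4.83, 15.3, 21.2 and 21.3 CPM in epithelial cells without one. These values are a description, as the 2 genes were known to go together in these cells.

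The endothelial class had few cells and few collagen UMIs, so each value rests on small counts. COL4A1 was at 126, 159, 0 and 154 CPM (68 UMIs in all), COL4A2 at 96.7, 153, 11.5 and 76.9 CPM (62 UMIs) and COL6A1 at 9.67, 77.8, 138 and 115 CPM (41 UMIs). COL5A2 was at 9.67, 99.6, 91.7 and 38.4 CPM, where 28 of its 32 UMIs in LG252 replicate 2 were in 1 cell. COL1A1 at 0, 3216, 0 and 0 CPM and COL1A2 at 0, 1613, 0 and 0 CPM had the highest means, yet came from 1 library only.

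In that library 1 cell held 1519 of the 1551 type I UMIs of the endothelial class (97.9%). It was singled out after its values were seen. It had 15802 UMIs, 4 of EMCN, which placed it in the class, and 0 of the 10 endothelial markers. It held 63 UMIs of IBSP, a bone matrix gene, 105 of SPARC, 0 of COL3A1, 28 of the 32 COL5A2 UMIs, 13 of the 25 COL6A1 UMIs, 16 of the 17 COL11A1 UMIs and all 9 COL24A1 UMIs of the endothelial cells of LG252 replicate 2. Asking endothelial cells for at least 1 UMI of an endothelial marker, an alternative chosen after seeing the data, removed this cell and 2 others. The collagen share of the class was then 0.0475% ± 0.0119 (SD, n = 4), against 0.174% ± 0.265 with them. In LG252 replicate 2 it left COL5A2 at 10.0 CPM and COL6A1 at 33.3 CPM.

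Against epithelial cells, endothelial cells were higher for 5 collagen genes and lower for 3, of 26 tested, where 22.1% of all genes were called, 8% as higher and 14.1% as lower. Before adjustment the counts at a p under 0.05 were 8 and 3, and DESeq2 gave 5 and 3. Among all 10984 genes, 3768 had such a p and DESeq2 called 2343, in either direction. COL6A1 was higher by 4.52 ± 0.89 on the log2 scale (edgeR adjusted p = 0.00135) in 4 of 4 libraries. COL4A1 (5.01), COL4A2 (2.41) and the membrane-bound COL13A1 (5.21, with 48.3, 34.2, 11.5 and 0 CPM) were higher in 3 of 4 libraries. COL11A1 (3.81) was no longer called with the marker requirement (log2 fold change 1.16, edgeR adjusted p = 0.604). After thinning, COL6A1 gave 0.60 (edgeR adjusted p = 0.901).

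The genes lower in endothelial than in epithelial cells were COL7A1 (-4.46 ± 1.22), COL8A1 (-4.01 ± 1.06) and COL12A1 (-3.26 ± 0.96). They had 1, 1 and 3 endothelial UMIs in all. In LG252 replicate 1 and LG255 replicate 2 a count of 0 allowed up to 29.0 and 115 CPM, above the epithelial levels of all 3 genes, so a difference was not detectable there at this depth. The same held for COL8A1 and COL12A1 in LG255 replicate 1, where a count of 0 allowed up to 34.4 CPM, above their epithelial levels. For COL8A1 and COL12A1 a count of 0 allowed less than the epithelial level only in LG252 replicate 2. There COL8A1 was at 3.11 CPM, with a 95% counting interval of 0.0788 to 17.3 CPM that includes the epithelial level of that library. All endothelial UMIs of both genes lay in that library, in cells without an endothelial marker. COL7A1 was not called without LG252 replicate 2 (-3.67, edgeR adjusted p = 0.115), nor COL8A1 without LG255 replicate 1 (-3.34, edgeR adjusted p = 0.0633). COL12A1 was not called without LG252 replicate 2 (-8.32, edgeR adjusted p = 0.118), LG255 replicate 1 (-2.99, 0.101) or LG255 replicate 2 (-2.97, 0.0595). The -8.32 is a fitted value against endothelial sums at 0. The count of called collagen genes was 12 without LG252 replicate 1 and 4 without LG252 replicate 2. Those fits called 2634 of 11202 and 1228 of 10666 genes in all.

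Of the pathway genes, SERPINH1 (log2 fold change 2.54) was higher and P3H2 (-2.16) lower in endothelial cells among 17 folding genes. None of 7 secretion genes was called by edgeR, 0 had an unadjusted p under 0.05, and DESeq2 called 0. Processing gave 4 higher of 10, including LOXL1 (5.86), the proteinase TLL1 (5.68) and LOX (4.11, higher in 1 of 4 libraries). The breakdown list gave 5 higher of 10, including MMP2 (5.03), CTSK (4.30) and the inhibitor TIMP3 (3.17). Of 8 receptors ITGA10 (6.35) was higher, and CD44 (-3.99) and ITGA2 (-2.79) were lower. Of all genes 22.1% were called in this comparison, 8% as higher and 14.1% as lower. The cell of LG252 replicate 2 without endothelial markers was kept here, and no pathway values without it are given. All 14 endothelial LOX UMIs lay in that library.

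Set against mesenchymal cells, endothelial cells were lower for 14 of 26 collagen genes and higher for 0, where 11.3% of all genes were called, 6.59% as lower and 4.67% as higher. At an unadjusted p under 0.05, 17 were lower and 1 higher, and DESeq2 called 14 lower and 0 higher. Among all 10984 genes these counts, in either direction, were 2698 and 1299. COL3A1 had 5 endothelial UMIs, at 0, 12.5, 0 and 38.4 CPM, and a log2 fold change of -9.47 ± 0.84 (edgeR adjusted p = 1.80e-06). COL6A3 (-7.35), COL12A1 (-6.24), COL16A1 (-5.74) and COL6A2 (-5.39) were lower in 4 of 4 libraries. COL15A1 had 0 endothelial and 486 mesenchymal UMIs and was at least 18.4-fold lower, taking a floor of 3 UMIs over the group. The bound was 10.0-fold without LG252 replicate 2, where the call was lost (edgeR adjusted p = 0.0742), and 12.1-fold without LG252 replicate 1.

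COL1A1 gave -5.65 and COL1A2 -5.46 in this comparison, and -9.88 and -9.24 with the marker requirement. Without LG252 replicate 2 COL1A1 gave -17.35, a fitted value against sums at 0, and without LG255 replicate 1 it was not called (edgeR adjusted p = 0.0596). Without the library block neither was called, with COL1A1 at -3.37 (edgeR adjusted p = 0.246) and COL1A2 at -3.68 (edgeR adjusted p = 0.146). None of the 4 tested type IV genes was called. COL4A1 gave -0.84 ± 0.62 (edgeR adjusted p = 0.447) and COL4A2 -1.24 ± 0.72 (edgeR adjusted p = 0.315).

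Partner chains did not keep the same ratio in every class. COL4A1 and COL4A2 lie 56 bases apart on chromosome 1 (29955621 to 30140922 and 30140979 to 30318142). Their UMI ratio was 0.659, 0.984, 1.38 and 0.787 in mesenchymal cells. In epithelial cells it was 0.136, 0.30, 0.108 and 0.163, from 3, 15, 7 and 15 UMIs of COL4A1 against 22, 50, 65 and 92 of COL4A2. The 95% counting intervals of the classes did not overlap in any of the 4 libraries, and these intervals cover counting error only. Single cells carried much of the LG255 mesenchymal values, with 7 of 11 COL4A1 and 5 of 8 COL4A2 UMIs of replicate 1, and 27 of 37 and 21 of 47 of replicate 2, in 1 cell. With the cell richest in the pair left out of every sum, an alternative chosen after seeing the data, the ratio was 0.610, 0.956, 1.33 and 0.385 in mesenchymal and 0.15, 0.326, 0.113 and 0.170 in epithelial cells. It remained higher in mesenchymal cells in 4 of 4 libraries, but the intervals then overlapped in 3 of them, the exception being LG252 replicate 2. The ratio of COL5A1 to COL5A2 was 1.45, 1.01, 1.15 and 1.26 in mesenchymal cells and 0.144, 0.512, 0.259 and 0.189 in epithelial cells, with no overlap of intervals in any library, with or without the richest cell. Epithelial COL5A2 thus came with little COL5A1. Levels of different genes depend on capture at each 3′ end, so a ratio is compared here only between classes.

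The ratio of COL4A5 to COL4A6 was 1.07, 1.12, 1.52 and 1.44 in epithelial cells. COL1A1 to COL1A2 was 1.35, 1.57, 1.40 and 1.85 in mesenchymal cells. COL6A1 to COL6A2 was 3.37, 5.35, 3.15 and 3.47 there. Across mesenchymal cells thinned to 1000 UMIs, COL1A1 and COL1A2 had a Spearman correlation of 0.636 in LG252 replicate 1 (302 cells), 0.663 in LG252 replicate 2 (652 cells) and 0.850 in LG255 replicate 2 (73 cells). COL1A1 and COL3A1 gave 0.567, 0.422 and 0.555. These are descriptions over cells of 1 library each, which share its depth and free RNA.

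**Figure D4:**
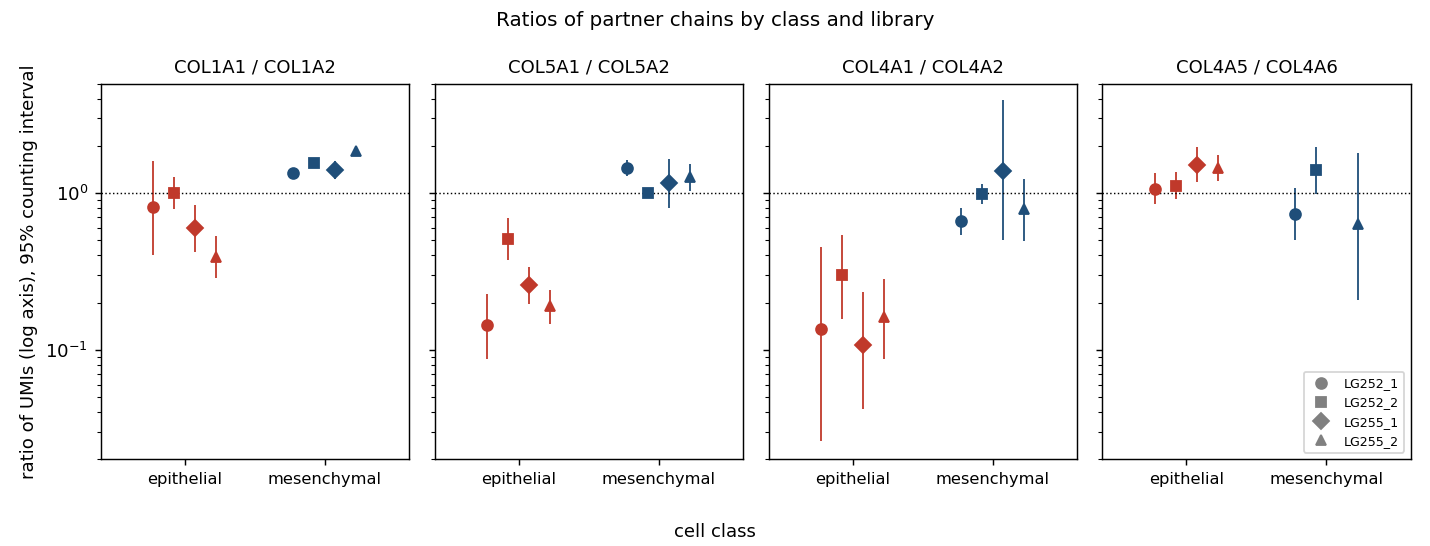
Ratio of the UMIs of partner chains (log axis, bars are 95% counting intervals) in epithelial and mesenchymal sums of each library; the dotted line marks a ratio of 1. COL5A1/COL5A2 lies at 0.144 to 0.512 in epithelial and 1.01 to 1.45 in mesenchymal cells, and COL4A1/COL4A2 at 0.108 to 0.30 and 0.659 to 1.38, where the intervals overlap in 3 libraries once the richest cell is left out. COL4A5/COL4A6 has no mesenchymal point for LG255 replicate 1, where COL4A6 had 0 UMIs.

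Mesenchymal cells were also split by dental and connective tissue genes. Cells with a UMI of MSX1 or LHX8 and none of DPT or MFAP5 (208 and 20 cells) were compared with the reverse (210 and 23 cells) in the replicate 2 libraries of LG252 and LG255, which alone held enough of both, so the fit had 1 residual degree of freedom. The median depth was 4881 and 3502 UMIs in the MSX1 or LHX8 cells against 1734.5 and 3290 in the DPT or MFAP5 cells. Depth bears on which cells meet such a rule, and its part in this split was not tested. Of 18 tested collagen genes 3 were called, where 6.95% of all genes were. Of all genes, 2.32% were called as higher and 4.63% as lower in the MSX1 or LHX8 cells. COL3A1 was at 1753 and 2063 CPM in the MSX1 or LHX8 cells and 3294 and 6621 CPM in the DPT or MFAP5 cells, a log2 fold change of -1.41 ± 0.26 (edgeR adjusted p = 0.000365). COL15A1 was at 45.4 and 11.7 against 146 and 119 CPM, a log2 fold change of -1.98 ± 0.47 (edgeR adjusted p = 0.00569). Its 11.7 CPM in LG255 replicate 2 was 1 UMI in 20 cells. Of 6 alternatives, 3 lost the COL15A1 call and 2 lost the COL3A1 call.

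COL24A1, named after its values were seen since it had too few UMIs for the rule, was higher in the MSX1 or LHX8 cells, with 41 against 3 UMIs and a log2 fold change of 2.77 ± 0.79 (edgeR adjusted p = 0.0252). In LG252 replicate 2, 21 of its 38 UMIs were in 1 cell, and LG255 replicate 2 had 3. Of 5 alternatives 2 did not call it (edgeR adjusted p up to 0.607) and DESeq2 gave no adjusted p. DESeq2 called 1 collagen gene here and thinned counts gave 0, beside 64 of 4315 and 32 of 1332 genes in all. The summed level of 7 skeletal markers was 720 CPM in the MSX1 or LHX8 cells against 142 in LG252 replicate 2, and 293 against 218 in LG255 replicate 2. That of mural cell markers was 35.4 against 259 and 317 against 208 CPM. Their part in the result was not tested.

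In the other class type I collagen transcripts sat in few cells, except in LG252 replicate 1. Of the 4611 other cells, 83 held 10 or more type I UMIs (4, 53, 4 and 22 per library), and these had 3519 of the 4230 type I UMIs of the class, or 17.8%, 85.1%, 69.4% and 93.8% by library. In epithelial cells, by contrast, the 4 cells over that minimum held 75 of 694. In the mesenchymal class 777 of 1186 cells passed that minimum and held 59091 of 60879. The COL3A1 to COL1A1 ratio in the type I-rich other cells was 0.939, 0.175, 1.45 and 0.143, against 0.637, 0.373, 0.663 and 0.338 in type I-rich mesenchymal cells. It was thus lower in the other cells of both replicate 2 libraries and higher in those of both replicate 1 libraries, which had 4 such cells each. COL24A1 was at 0, 162, 0 and 357 CPM in these other cells and 32.2, 23.2, 0 and 84.2 CPM in the mesenchymal ones, where 21 of the 26 UMIs of the last library's class were in 1 cell. In the replicate 2 libraries RUNX2, a transcription factor gene of bone-forming cells, was at 504 and 258 CPM against 379 and 311 CPM. The bone matrix gene IBSP was lower in the other cells of both, at 33.2 and 19.9 against 75.7 and 84.2 CPM. DCN was also lower in the other cells, at 92.8 and 169 against 1710 and 1555 CPM, which the class rule fixes. These cells were chosen by their collagen counts, so their values are given without a test.

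**Figure D5:**
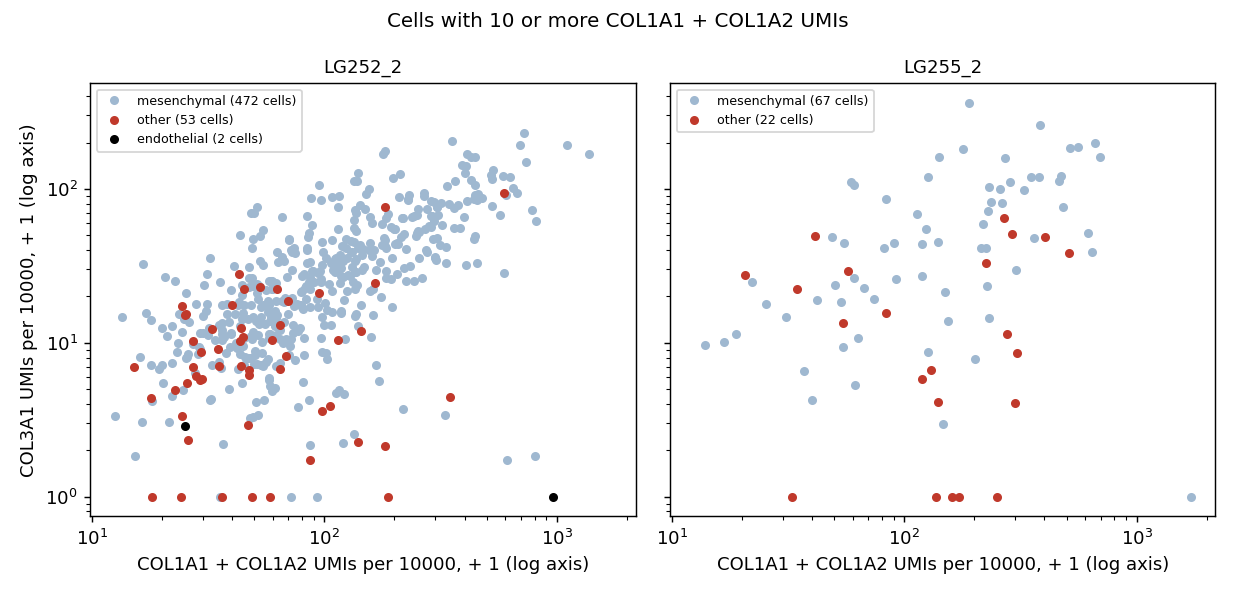
COL3A1 against COL1A1 plus COL1A2 (UMIs per 10000 UMIs of the cell, plus 1, log axes) for each cell with 10 or more type I UMIs in LG252 replicate 2 and LG255 replicate 2. Shown are 472 and 67 mesenchymal cells, 53 and 22 other cells, and 2 endothelial-class cells; epithelial cells are not drawn. Pooled, the other cells have a COL3A1 to COL1A1 ratio of 0.175 and 0.143, below the 0.373 and 0.338 of mesenchymal cells; the replicate 1 libraries, not drawn, had 4 other cells each and ratios of 0.939 and 1.45, above the 0.637 and 0.663 of mesenchymal cells.

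Between the animals, 5 of 22 tested collagen genes were lower in LG252 than in LG255 epithelial cells and 0 were higher, where 33.5% of all genes were called, 13% as lower and 20.5% as higher. At an unadjusted p under 0.05, 6 were lower and 0 higher, and DESeq2 called 3 lower and 0 higher. Among all 12584 genes these counts, in either direction, were 5658 and 2792. COL5A2 was at 21.2 and 21.2 CPM in LG252 and 81.0 and 52.1 CPM in LG255, a log2 fold change of -1.50 ± 0.21 (edgeR adjusted p = 0.000779) that was called with each library left out. COL21A1 (-1.33), COL4A2 (-1.28), COL8A1 (-1.08) and COL7A1 (-0.90) were also lower in LG252. Their values did not overlap between the animals, but naming a gene in this comparison required that. Each of these other 4 lost its call without some library. COL4A2 did so without LG252 replicate 1 (-0.68, edgeR adjusted p = 0.138) and LG255 replicate 1 (0.0714), and COL21A1 without LG255 replicate 2 (0.0705). COL7A1 and COL8A1 did so without LG252 replicate 1 (edgeR adjusted p = 0.0535 and 0.119) and LG255 replicate 1 (0.0900 and 0.0706). The count was 13 without LG252 replicate 2 and 7 without LG252 replicate 1. With 1 animal for each digestion, these differences cannot be assigned to either.

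In mesenchymal cells 0 of 21 tested collagen genes were called between the animals by edgeR, where 0.776% of all genes were, 0.621% as higher and 0.155% as lower in LG252. At an unadjusted p under 0.05, 1 gene, COL15A1 (log2 fold change 1.43), was on the higher side in LG252 and 1, COL8A1 (-2.72), on the lower side, and DESeq2 called 1 lower. Among all 7084 genes, 880 had an unadjusted p under 0.05 and DESeq2 called 162, in either direction. The LG255 sums came from 14 and 75 cells, with 28 of the 29 COL8A1 UMIs of replicate 1 in 1 cell, and the count was 1 without LG252 replicate 1 and 6 without LG252 replicate 2. A test of the difference between the animals in the mesenchymal to epithelial contrast called 0 of 26 genes by edgeR, where 0.256% of all genes were called, 0.233% as higher and 0.0233% as lower. Unadjusted, 5 were higher and 1 lower at a p under 0.05, and DESeq2 called 0. Among all 12889 genes these counts, in either direction, were 890 and 27. COL5A2 came nearest, with a log2 difference of 1.86 (edgeR adjusted p = 0.0932). This count was 3 without LG252 replicate 1 and 12 without LG252 replicate 2.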

How the data were processed

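Single-cell 3′ libraries of 4 samples were used. The authors deposited raw UMI counts per gene and barcode, made with Cell Ranger 7.1.0 per the file headers (2.1.0 per the submitters' processing notes) on assembly MPM_Emac_v1.0 (named in the series' design text). Cell calling, the handling of intronic reads and the annotation release are not given in the sources used here. Barcodes with 200 or more genes were kept. Doublets were removed only by setting aside cells that met more than 1 class rule. Scrublet, with its own threshold, marked 15 barcodes (0.174%), too few to have worked, and at an assumed 0.8% per 1000 cells 209 were left out as an alternative. Barcodes shared by a pair of libraries numbered 2 to 8. Counts were summed per library and class (at least 10 cells) and tested with edgeR 4.0.16 (TMM, filterByExpr, quasi-likelihood, Benjamini-Hochberg over all genes tested). SEs are |log2 fold change| over the root of F. The code was tested on simulated data.

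Members, lists and tests were chosen with earlier results of these data known. Per class the 6 members with the highest mean CPM got the value in every library. Per comparison, up to 8 called members a direction with at least 50 UMIs and 1 direction in every library were named with their test, and of each pathway list the 3 largest called changes a direction. Other members named were chosen after their values were seen. Alternatives were DESeq2 1.42.0 and its size factors, no count filter, each library left out, doublet calls, thinning to 1000 UMIs, cells of several rules assigned in order, stricter class minimums, all barcodes, fewer classes in the fit, fits with and without the library or replicate block, and the endothelial marker requirement. Sequences of these genes are not used here.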

Additional observations from a re-analysis of the deposited data

Results flagged for a closer look

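In 6 genes the contrast went one way in both LG252 libraries and the other way in both LG255 libraries. The difference between the animals was not tested in any of them. The endothelial minus epithelial level was 32.3 CPM in LG252 and -9.70 CPM in LG255 for COL5A1, and 30.9 and -2.94 CPM for COL11A1, where LG252 replicate 2 includes the cell with 16 of 17 COL11A1 UMIs. The LG255 endothelial sums held 1 and 0 UMIs of COL5A1 and 0 and 0 of COL11A1. A count of 0 allowed up to 34.4 and 115 CPM there, so the LG255 direction of COL11A1 was not detectable. The 1 COL5A1 UMI of LG255 replicate 1 had a 95% counting interval of 0.290 to 63.9 CPM. In that library 1 epithelial cell held 11 COL11A1 UMIs. The epithelial minus other level of COL4A5 was 20.5 CPM in LG252 and -15.4 CPM in LG255, beside epithelial markers of 67.0 and 259 CPM in the other cells of LG252 and 990 and 738 CPM in those of LG255. The COL17A1- and LAMB3-rich minus free level was -1.62 and 22.8 CPM for COL1A2, -4.38 and 7.09 CPM for COL3A1, and -1.07 and 8.48 CPM for COL21A1.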

How the results depend on the processing

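Over 43 pairs of a named gene and a comparison, 564 alternative values were computed, of which 495 kept direction and side of the threshold, 69 kept the direction without passing it and 0 reversed. Counts of called collagen genes moved by over 1.5 times, and the cause was not tested, as follows. Thinning to 1000 UMIs, which left 2 to 23 members testable, gave 3 for endothelial against epithelial, 1 for rich against free epithelium, 0 for MSX1 or LHX8 against DPT or MFAP5 mesenchyme, and 1 each between the animals in epithelial and mesenchymal cells. In the same order, thinning called 1021 of 7341, 346 of 2737, 32 of 1332, 1265 of 5827 and 52 of 2867 genes in all. No count filter gave 14 for epithelial against other, and 14, 1 and 4 for the animals in epithelium, in mesenchyme and for the difference of the class contrast. Its counts over all genes were 3194 of 19322, 5000 of 18298, 466 of 16660 and 144 of 18692. DESeq2 gave 1 for the mesenchymal split, and 3 and 1 between the animals in epithelium and mesenchyme. It called 64 of 4315, 2792 of 12584 and 162 of 7084 genes in all there. Without the library block the counts were 5 for epithelial against other, 0 for rich against free epithelium and 0 for the mesenchymal split. The counts over all genes fell too, to 1124 of 10230, 123 of 9044 and 0 of 4315. One fit of all class by animal sums gave 0 in epithelium, and removing Scrublet calls gave 1 for the difference of the class contrast. These fits called 1300 of 11989 and 49 of 12827 genes in all. Stricter minimums put the mesenchymal collagen share at 2.59%. With each library left out the counts ran from 17 to 20 for mesenchymal against epithelial, 4 to 12 for endothelial against epithelial, 11 to 14 for endothelial against mesenchymal, 4 to 14 for epithelial against other, 6 to 11 for rich against free, 5 to 13 and 0 to 6 between the animals in epithelium and mesenchyme, and 0 to 12 for the difference. Among all genes tested, such fits called 1714 to 3382 for mesenchymal against epithelial and 1228 to 2634 for endothelial against epithelial. They called 396 to 1401 for endothelial against mesenchymal, 914 to 2087 for epithelial against other and 1050 to 1492 for rich against free. Between the animals such a fit leaves 1 library in an animal, so its counts are not read as results. The mesenchymal split has 0 residual degrees of freedom with a library left out, so no such value was computed. DESeq2's size factors moved the median log2 fold change of all genes from -0.40 to -0.16 for endothelial against epithelial, from -0.31 to -0.17 for endothelial against mesenchymal and to -0.11 for epithelial against other. Same-numbered libraries of the animals did not deviate together (r = -0.115 over epithelial and 0.00318 over mesenchymal genes). This cannot decide whether the numbers pair the libraries, and the labels do not say. A replicate block gave the same 5 genes in epithelium and 1 gene in mesenchyme. The crossed pairing, added after seeing the data, gave 9 and 0. The replicate block called 3810 of 12584 and 157 of 7084 genes in all, and the crossed pairing 4895 and 149. Small numbers of cells, and so of UMIs per sum, limit the endothelial class and the mesenchymal cells of LG255 most.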
